A study of Mus musculus with 3 samples.

Results

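The peripheral myelin and axon-glia genes are 9 genes of myelinating Schwann cells, chosen by name with earlier results of these data known: Pmp22, Mbp, Mag, Prx, Mal, Ncmap, Cldn19, Pllp and Kcna1, out of 32285 gene identifiers in the count table, of which 24630 had a UMI in a kept barcode. A UMI (unique molecular identifier) marks 1 captured RNA molecule. The cells were dissociated from the cochlea, the hearing organ of the inner ear, of C57BL/6J mice. The study has 3 groups, each 1 library pooled from 6 mice. The NIHL group had noise of 115 dB for 4 h over 3 days, the HHL group had noise of 110 dB for 2 h, both were sampled 6 h after the last exposure, and the control group had no noise. No transgene or deletion is named for any group. All cells stand in 1 table in which a barcode suffix (3, 2 or 1) separates the libraries, and no label ties a suffix to a group. The libraries are therefore called library 3, 2 and 1, the groups were not compared, and no test was possible, so every 95% interval given covers counting error alone.

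Schwann cells are the glia of peripheral nerves, and in the cochlea they wrap the fibres of the auditory nerve up to the border with the central part of the nerve, where oligodendrocytes take over. A myelinating Schwann cell winds its membrane around an axon and binds the layers together, with compact myelin in the wraps and channels of cytoplasm at their edges. Structural proteins hold the layers, adhesion and scaffold proteins anchor the membrane to the axon and to the basal lamina, proteolipids order the membrane lipids, and junction proteins seal the edges. The transcription factors SOX10 and EGR2 are known to drive many genes of this programme.

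Barcodes needed 500 UMIs, 200 genes and no more than 20% mitochondrial UMIs to enter, which gave 10703, 9602 and 16883 barcodes in libraries 3, 2 and 1, with median depths of 8098, 6293.5 and 5464 UMIs. A barcode was assigned to the cell type whose marker genes stood highest in it, with at least 3 markers detected. The Schwann gate rests on 10 markers, among them Sox10, Cdh19, Gldn, Egr2, Dhh, Foxd3, Erbb3 and Fxyd3, and none of the 9 genes is a marker of any gate. It held 88, 43 and 102 barcodes, 233 in all or 0.627% of those kept, with median depths of 3813, 4005 and 2448 UMIs. Egr2 had a UMI in 67.0%, 76.7% and 61.8% of these barcodes and Sox10 in 69.3%, 53.5% and 44.1%. The 8 oligodendrocyte markers summed to 1, 4 and 2 UMIs. All of these genes are markers of this gate or of a competing one, so the values describe the gate and do not test its name. Blood cells made up most of the suspension, and their RNA was present in the gate. At least 3 of 8 neutrophil markers were detected in 46, 26 and 62 of its barcodes, and a UMI of the pan-leukocyte gene Ptprc in 15, 13 and 24. Hemoglobin and S100a8 and S100a9 RNA was 2.84%, 6.37% and 7.21% of its summed UMIs. The deepest barcodes weighed most: those over 10000 UMIs numbered 6, 9 and 12 and held 29.8%, 64.2% and 43.3% of the summed UMIs. Between libraries, 31 barcode sequences were shared by 3 and 2, 53 by 3 and 1, and 46 by 2 and 1.

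All 9 genes had their highest summed level in the Schwann gate in each of the 3 libraries, among the 21 gates with at least 20 barcodes in every library. Of the 7646 genes with at least 20 summed UMIs in the Schwann gate, 359 did so, which is a background of 4.70%. Since the 9 genes were chosen for their place in Schwann cells, this count describes them and predicts nothing. The oligodendrocyte gate, too small to enter this ranking, had higher levels of Mag, Mal and Mbp than the Schwann gate, as given below. The Schwann gate held 91.4% of all Ncmap UMIs in kept barcodes, 89.7% of Cldn19, 84.9% of Kcna1, 71.3% of Pllp, 68.0% of Prx and 61.1% of Pmp22, from 0.627% of the barcodes. It held 49.4% of Mal UMIs, and only 19.1% of Mag and 18.7% of Mbp. Ncmap, Cldn19 and Kcna1 thus had the least of their RNA elsewhere, Pllp, Prx and Pmp22 had more of it elsewhere, and Mal, Mag and Mbp had most of it elsewhere. Levels are given as CPM, a gene's UMIs per 1000000 UMIs summed over the gate in that library. A 3′ UMI count is not divided by gene length.

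**Figure D1:**
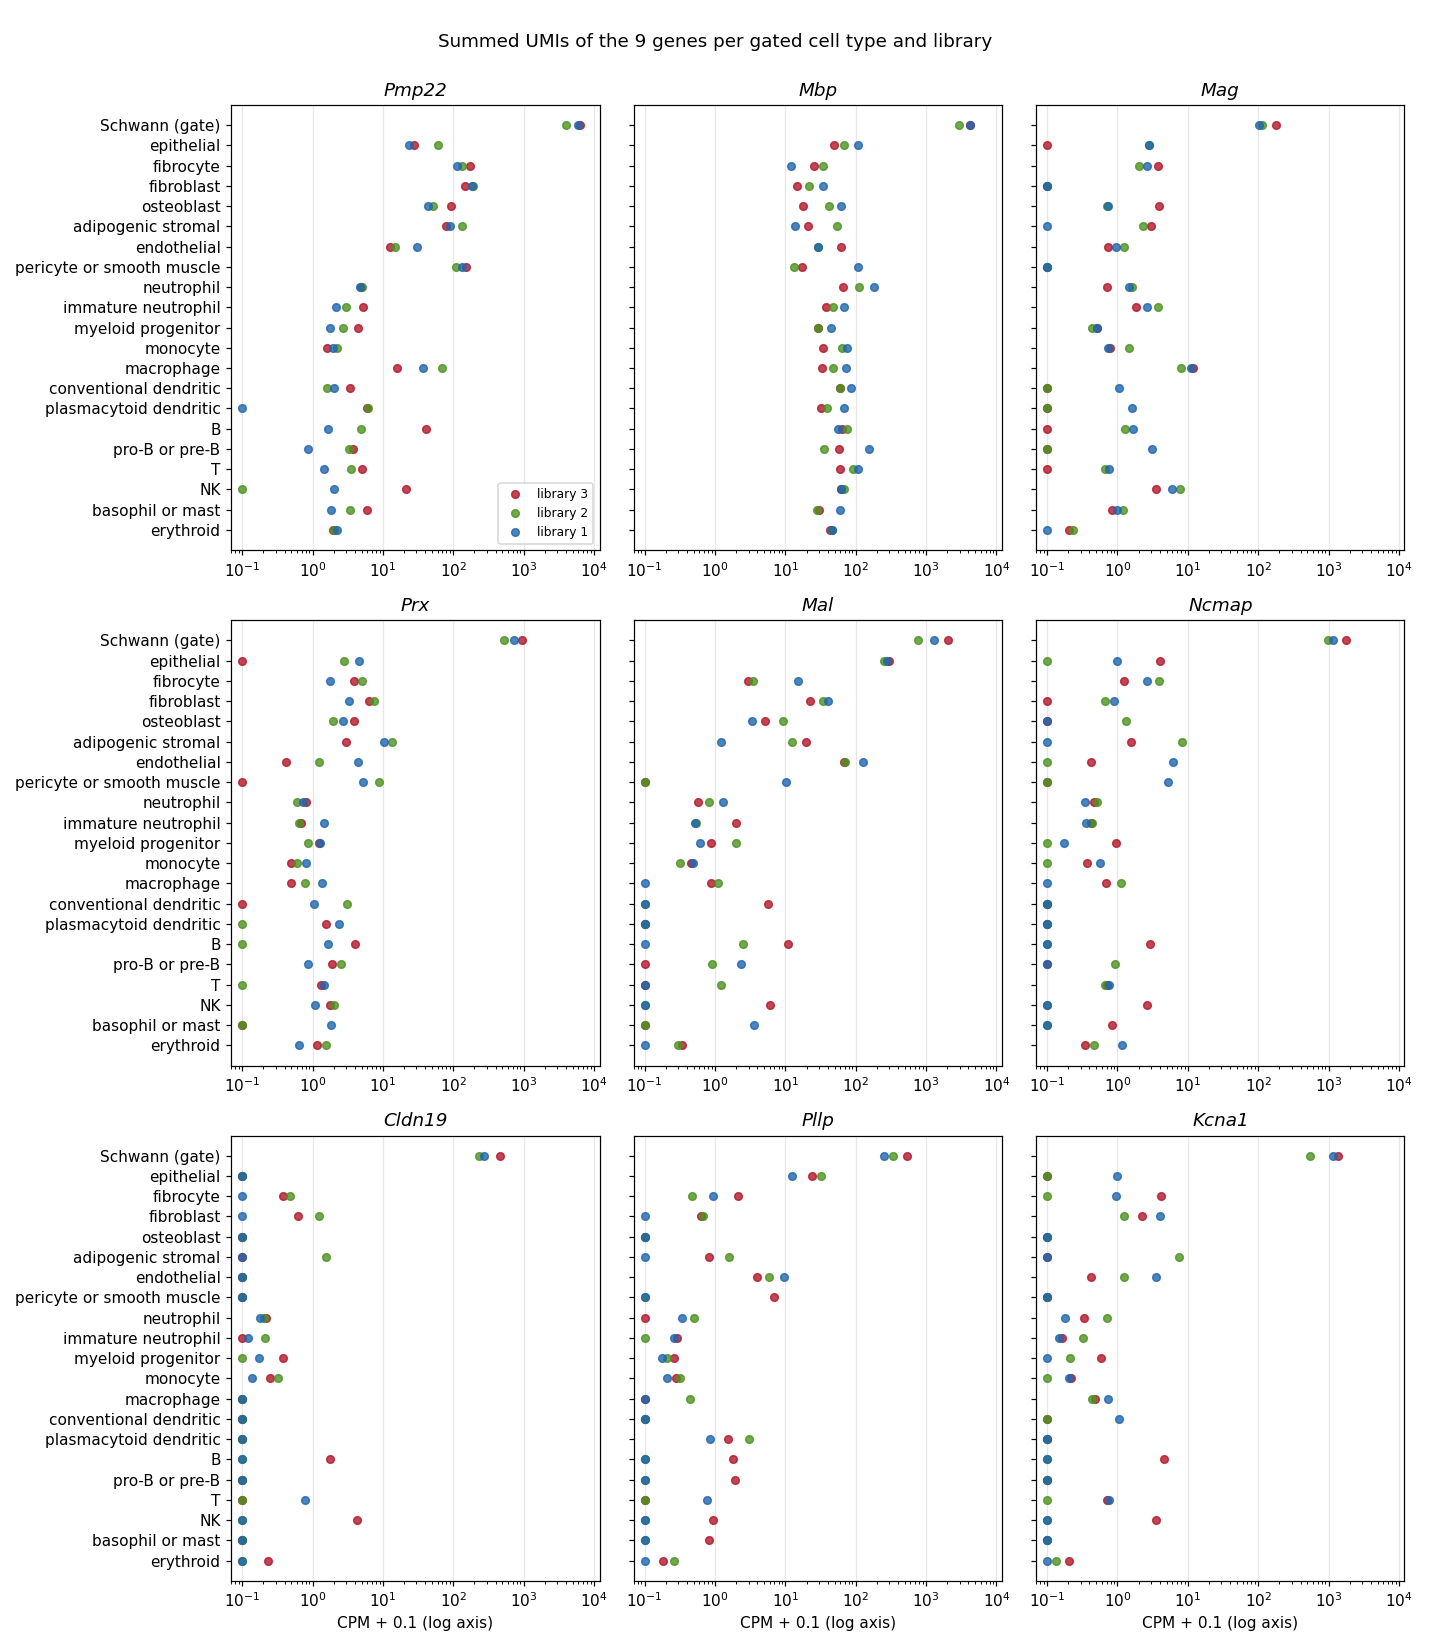
Level of each of the 9 genes (CPM plus 0.1, log axis) in the 21 gated cell types (rows, Schwann gate at the top), with 1 point per library. In every panel the 3 points of the Schwann gate lie right of all other points, while Mbp forms a second band at 11.9 to 183 CPM in all other gates and Mal a second site in the epithelial gate at 249 to 292 CPM.

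Pmp22 and Mbp, the structural genes, were the members with the most UMIs. Pmp22 encodes a membrane protein of compact peripheral myelin whose gene dosage is known for its part in inherited neuropathy. It reached 6234.5 CPM (95% interval 6010 to 6466) in library 3, 4047 CPM (3841 to 4261) in library 2 and 5833 CPM (5616 to 6058) in library 1, and had a UMI in 97.7%, 90.7% and 93.1% of the barcodes. Its next gates were connective tissue and vessel wall, with fibroblasts at 145, 194 and 187 CPM, fibrocytes at 174, 131 and 113 CPM, and pericytes or smooth muscle at 150, 108 and 133 CPM. The ranges of these 3 gates over the libraries overlap, so their order is not resolved. The Schwann level was 35.9-fold (32.9 to 39.3), 20.9-fold (18.5 to 23.6) and 31.1-fold (27.3 to 35.7) that of the next gate in libraries 3, 2 and 1. In fibroblasts the Pmp22 UMIs did not come from a few barcodes: 58.6%, 62.8% and 45.8% of fibroblast barcodes had a UMI, and 2.00%, 1.49% and 1.13% of neutrophil barcodes, at median depths of 4129, 3138 and 2716 UMIs in neutrophils. With each barcode thinned to 1000 UMIs the shares were 18.2%, 15.3% and 16.8% in fibroblasts and 0.515%, 0.461% and 0.617% in neutrophils.

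Mbp encodes myelin basic protein, which pulls the cytoplasmic faces of the wraps together in peripheral and central myelin. It stood at 4269 CPM (4083 to 4461), 2920 CPM (2746 to 3103) and 4251 CPM (4065 to 4443) in the Schwann gate of libraries 3, 2 and 1. Neutrophils came next at 65.3, 111 and 183 CPM, followed by T cells at 59.6, 91.7 and 107 CPM, and from neutrophils down the range of every gate overlapped with that of the next one in order. Erythroid barcodes had 43.2, 46.6 and 46.2 CPM. Over the 3 libraries, the 233 Schwann barcodes held 5001 Mbp UMIs and the 8277 neutrophil barcodes 3914. The proportion to Pmp22 differed. The Schwann gate had 0.685, 0.722 and 0.729 Mbp UMIs per Pmp22 UMI, against 13.6, 22.3 and 40.0 in neutrophils. The Mbp locus is known in the mouse to give a second family of transcripts, golli, in cells of the immune system, and the deposited 3′ counts do not separate it from the myelin transcripts. Mobp, a gene of central myelin, had 2.15, 2.79 and 4.32 CPM (1, 1 and 2 UMIs) in the Schwann gate of libraries 3, 2 and 1, against 1.56, 2.14 and 18.0 CPM (13, 21 and 223 UMIs) in neutrophils, so that neutrophils were above the Schwann gate in library 1 alone. The part of oligodendrocyte RNA in the neutrophil level was not tested.

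Mag and Prx anchor the myelin membrane. Mag encodes an adhesion protein of the innermost wrap that faces the axon, in central as in peripheral myelin, and Prx encodes periaxin, a scaffold on the outer side that links the membrane to dystroglycan. The promoters of Prx and of Cldn19, a junction gene of the myelin edges, are shown for genes with no UMI in the oligodendrocyte gate, and that of Mag for the gene shared with oligodendrocytes. Each line gives the 250 bases before the first start listed in the RefSeq table (GRCm38.p6), 5′ to 3′ on the gene's strand. Prx lies at chr7:27499074-27499323 on the plus strand, Cldn19 at chr4:119255191-119255440 on the plus strand and Mag at chr7:30914864-30915113 on the minus strand. Capitals mark matches on either strand to ACAAAG, a core bound by SOX factors, or to GTGGGNG, a core bound by EGR factors.
Prx: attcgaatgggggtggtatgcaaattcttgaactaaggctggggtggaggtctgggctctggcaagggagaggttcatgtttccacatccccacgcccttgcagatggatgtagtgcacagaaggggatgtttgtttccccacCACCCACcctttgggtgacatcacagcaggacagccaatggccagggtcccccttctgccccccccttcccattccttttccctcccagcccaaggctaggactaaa
Cldn19: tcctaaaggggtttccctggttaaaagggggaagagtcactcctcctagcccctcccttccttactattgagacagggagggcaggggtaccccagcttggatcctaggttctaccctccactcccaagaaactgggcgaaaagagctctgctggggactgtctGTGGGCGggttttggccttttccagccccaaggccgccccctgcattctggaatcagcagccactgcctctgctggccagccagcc
Mag: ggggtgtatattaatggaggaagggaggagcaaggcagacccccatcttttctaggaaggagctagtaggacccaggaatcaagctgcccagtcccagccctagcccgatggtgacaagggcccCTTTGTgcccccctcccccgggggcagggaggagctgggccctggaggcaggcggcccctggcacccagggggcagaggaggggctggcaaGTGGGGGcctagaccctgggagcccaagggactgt
In the Prx window the EGR core lies 107 bases before the start, in that of Cldn19 86 bases before it, and in that of Mag 35 bases before it, and Mag also holds a SOX core 126 bases before the start. The table lists 7 of the 9 genes, not Mbp and Kcna1. The EGR core was in 1 of 1 listed promoters of Prx, 2 of 2 of Cldn19, 1 of 3 of Mag and 1 of 2 of Ncmap. The SOX core was in 2 of 3 of Mag. None of the 4 of Pmp22, nor the 1 each of Mal and Pllp, held either core. The EGR core occurs in 28.1% and the SOX core in 16.5% of all 32851 windows of this length, and the matches do not overlap. Those are shares of single windows, not of genes with any match. The marks are matches of letters, not measured binding.

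Prx had 946 CPM (860 to 1039), 519 CPM (447 to 599) and 719 CPM (644 to 800) in the Schwann gate of libraries 3, 2 and 1, and a UMI in 88.6%, 81.4% and 81.4% of its barcodes. No other gate of the 21 compared passed 13.2 CPM, and the neuron gate, too small to compare, had 6, 7 and 0 Prx UMIs. Mag was the least abundant member by UMIs, with 176 CPM (140 to 219), 114 CPM (82.1 to 155) and 101 CPM (74.6 to 135), and a UMI in 48.9%, 48.8% and 30.4% of the barcodes. Its next gate was the macrophage gate in all 3 libraries, at 11.8 CPM (9.02 to 15.2), 7.80 CPM (4.94 to 11.7) and 10.9 CPM (6.36 to 17.5), and its range lay just above that of NK cells, the next gate down, at 3.38 to 7.58 CPM. In macrophages 9.33%, 5.78% and 4.92% of barcodes had a Mag UMI, against 0.223%, 0.558% and 0.448% of neutrophil barcodes. Median depth was 7458, 7232 and 3783 UMIs in macrophages, and with barcodes thinned to 1000 UMIs the macrophage shares were 3.07%, 0.958% and 1.02%, against 0%, 0.0769% and 0.107% in neutrophils. The thinned Mag shares in the Schwann gate were 13.8%, 12.2% and 10.5%. Mal did not go with Mag in macrophages: the Schwann gate had 959, 271 and 601 Mal UMIs beside 82, 41 and 47 Mag UMIs, and the macrophage gate 4, 3 and 0 Mal UMIs beside 61, 23 and 17 Mag UMIs.

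The 9 genes divided between Schwann cells and oligodendrocytes, the myelinating glia of the central nervous system. The oligodendrocyte gate held 7 barcodes (0, 4 and 3 in libraries 3, 2 and 1), and it was kept out of the ranking above because of its size. The Schwann gate had 959 Prx, 1729 Ncmap and 425 Cldn19 UMIs, while the oligodendrocyte gate had none of these genes, which allows up to 21.3 CPM for each, against 745, 1344 and 330 CPM in the Schwann gate over all libraries. Mag stood at 132 CPM (113 to 154) in the Schwann gate and at 1749 CPM (1537 to 1982) in the oligodendrocyte gate. Mal was also higher in the oligodendrocyte gate, at 1203 and 2509 CPM in libraries 2 and 1, against 756 and 1298 CPM in the Schwann gate. Among the UMIs of the 9 genes, Mag made up 0.894% (0.765 to 1.04) in the Schwann gate and 18.5% (16.4 to 20.6) in the oligodendrocyte gate. For Pmp22 these shares were 37.1% (36.4 to 37.8) and 6.15% (4.92 to 7.58), for Mbp 26.3% (25.7 to 26.9) and 53.0% (50.3 to 55.7), for Mal 9.63% (9.22 to 10.1) and 18.1% (16.0 to 20.3), and for Kcna1 7.14% (6.78 to 7.51) and 1.13% (0.631 to 1.85). Pllp did not differ beyond counting error, at 2.55% (2.33 to 2.79) and 3.15% (2.28 to 4.24). With 2 markers required instead of 3 the oligodendrocyte gate grew to 16 barcodes, again with no UMI of Prx, Ncmap or Cldn19. The Mag UMIs stayed at 246, so the added barcodes held none, while the Mbp UMIs were 1141 instead of 707. Mbp stood at 7044 CPM (6641 to 7465) in those 16 barcodes, against no more than 4269 CPM in the reported Schwann gate of any library. The counts of the reported oligodendrocyte gate come from 7 barcodes of pooled mice and are a description of those cells.

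**Figure D2:**
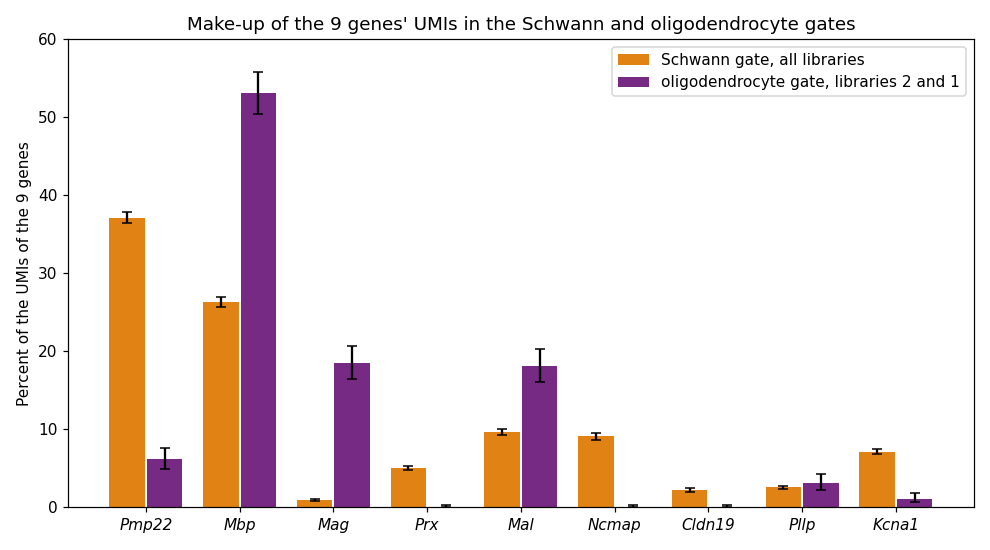
Share of each gene in the summed UMIs of the 9 genes (percent), in the 233 barcodes of the Schwann gate (orange, left bar) and the 7 barcodes of the oligodendrocyte gate (purple, right bar), with exact binomial 95% intervals for counting error. Pmp22 leads the Schwann bars at 37.1% and Mbp the oligodendrocyte bars at 53.0%, while Prx, Ncmap and Cldn19 are at 0% in the oligodendrocyte gate.

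Mal and Pllp encode small proteolipids of lipid-rich membrane, and Mal is also known for sorting proteins to the apical face of epithelial cells. Mal had 2062 CPM (1934 to 2197), 756 CPM (669 to 851) and 1298 CPM (1196 to 1406) in the Schwann gate of libraries 3, 2 and 1. Among the compared gates, its second site was the epithelial gate, at 292 CPM (247 to 344), 249 CPM (215 to 288) and 277 CPM (247 to 310), where 78.6%, 69.6% and 75.6% of barcodes had a UMI. Next came the endothelial gate, at 67.9, 71.5 and 129 CPM, with a UMI in 21.9%, 29.5% and 23.7% of barcodes. The ranges of these 3 gates did not overlap. The Schwann level was 7.05-fold (5.92 to 8.44), 3.03-fold (2.51 to 3.68) and 4.68-fold (4.08 to 5.39) that of the epithelial gate, the smallest margins among the 9 genes in each library. Pmp22 did not go with Mal in these gates: there were 0.331, 0.187 and 0.222 Mal UMIs per Pmp22 UMI in the Schwann gate, against 10.6, 4.11 and 12.0 in the epithelial and 5.41, 4.77 and 4.29 in the endothelial gate.

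Pllp showed the same order at lower counts. It had 529 CPM (465 to 599), 343 CPM (285 to 409) and 250.4 CPM (207 to 300.4) in the Schwann gate, 23.7 CPM (12.3 to 41.4), 32.3 CPM (20.7 to 48.1) and 12.4 CPM (6.80 to 20.9) in the epithelial gate, and 3.86, 5.77 and 9.42 CPM in the endothelial gate. The Schwann gate had no overlap with the epithelial gate, nor the epithelial with the endothelial gate, in their ranges over the libraries. Both genes thus had the same order of gates, Schwann, epithelial and endothelial.

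Ncmap encodes a membrane protein of noncompact myelin, and Cldn19 a claudin of the tight junctions that close the edges of the myelin sheath. Ncmap stood at 1791 CPM (1672 to 1917), 998 CPM (898 to 1107) and 1162 CPM (1065 to 1264) in the Schwann gate of libraries 3, 2 and 1, and had a UMI in 93.2%, 79.1% and 72.5% of barcodes. Among the other compared gates, the highest level was 8.09 CPM, in the adipogenic stromal gate of library 2, where 9 of the 11 UMIs came from 1 barcode. Cldn19 had 462 CPM (403 to 528), 229 CPM (182 to 284) and 276 CPM (231 to 329), with a UMI in 85.2%, 72.1% and 60.8% of barcodes, and no other gate of the 21 compared passed 4.23 CPM. The neuron gate had 2, 2 and 0 Cldn19 UMIs. No Cldn19 UMI was counted in the epithelial or endothelial gate of any library. For both genes the gates below Schwann lay at or near a few UMIs, and their order is not resolved.

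Kcna1 encodes a voltage-gated potassium channel best known from axons, where it lies under the myelin next to the node. It had 1359 CPM (1255 to 1469), 549 CPM (475 to 632) and 1140 CPM (1045 to 1241) in the Schwann gate of libraries 3, 2 and 1, with a UMI in 97.7%, 90.7% and 86.3% of barcodes, as many as Pmp22 in libraries 3 and 2. Neuron markers were nearly absent there, with 5, 15 and 3 UMIs over 9 genes, and no barcode of the gate had 3 of them. The highest other compared gate had 7.35 CPM. The neuron gate, too small to compare, held 4, 2 and 0 barcodes with 102, 21 and 0 Kcna1 UMIs. The same barcodes held 66, 82 and 0 Pmp22 UMIs. In library 3 the neuron gate thus had more Kcna1 than Pmp22 UMIs, from 2 barcodes with a Kcna1 UMI. The Schwann gate had 632 Kcna1 beside 2899 Pmp22 UMIs in library 3 and 197 beside 1451 in library 2. The part of Schwann RNA in the neuron level was not tested.

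Within the gate, most barcodes carried most of the 9 genes. The median number detected was 8, 8 and 7 in libraries 3, 2 and 1. All 9 were detected in 34, 17 and 19 barcodes, 7 or more in 79 of 88, 32 of 43 and 65 of 102, and 3 or fewer in 4, 4 and 11. The 9 genes together made up a median of 245, 222 and 255 UMIs per 10000 UMIs of a barcode. The spread was wide, with ranges of 14.4 to 401, 0 to 440 and 0 to 743. Most barcodes over 10000 UMIs had low values. Leaving the Ptprc barcodes out raised the medians to 247, 287 and 275.

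**Figure D3:**
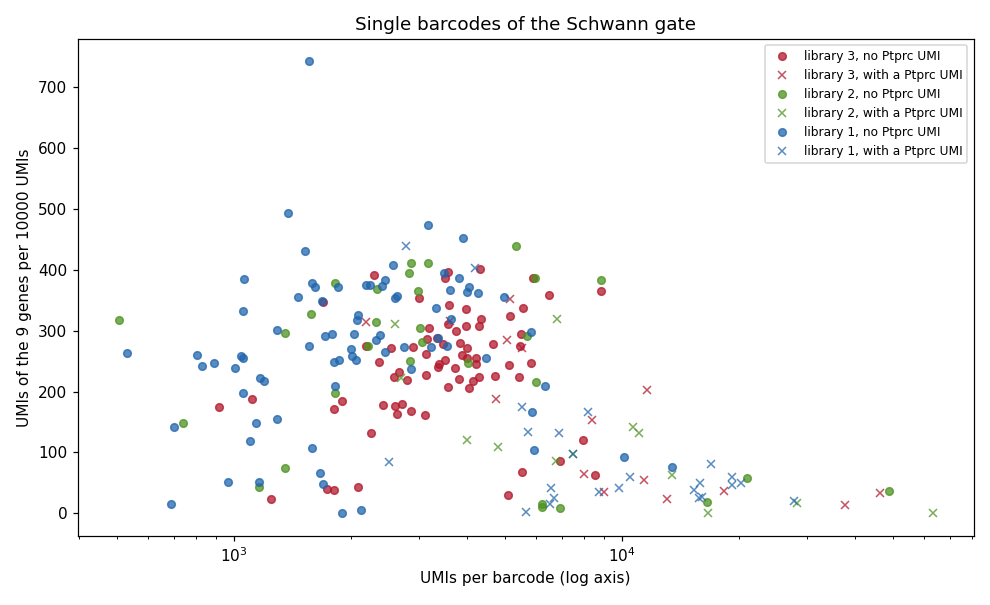
UMIs of the 9 genes per 10000 UMIs (vertical axis) against depth (log axis) in each of the 233 barcodes of the Schwann gate, coloured by library, with crosses for the 52 barcodes that hold a UMI of the leukocyte gene Ptprc. Most barcodes without Ptprc lie under 10000 UMIs at 100 to 450, and most barcodes over 10000 UMIs lie under 100.

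The genes did not all vary together among single barcodes. Among the 36 pairs of genes, the Spearman correlation of UMIs per 10000 had a median of 0.29, 0.47 and 0.33 in libraries 3, 2 and 1, over 88, 43 and 102 barcodes, and of 0.20, 0.29 and 0.19 without the Ptprc barcodes. Without those barcodes, Pmp22 and Mbp had correlations of 0.604, 0.754 and 0.477, Mbp and Prx of 0.561, 0.641 and 0.508, and Prx and Ncmap of 0.514, 0.475 and 0.508. Kcna1 had weak correlations with the structural genes, whose sign depended on the Ptprc barcodes. Over all barcodes they were 0.032, 0.138 and 0.210 with Mbp and 0.076, 0.143 and 0.244 with Pmp22. Without the Ptprc barcodes they were -0.201, -0.132 and -0.112 against Mbp and -0.160, -0.136 and -0.085 against Pmp22. The barcodes of a library share its preparation, and their values share the total they are divided by.

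Kcna1 also differed from the structural genes in barcodes with genes of non-myelinating glia. Of a list of 8 such genes (Scn7a, Ngfr, L1cam, Gfap, Ncam1, Fabp7, Matn2 and Gfra3), at least 2 were detected in 20 barcodes of the gate (3, 9 and 8 in libraries 3, 2 and 1), which left 213 with 0 or 1. Without Ptprc barcodes they were 14 and 167, with median depths of 2866.5 and 2859 UMIs. Kcna1 had a UMI in 92.9% (66.1 to 99.8) of the 14 barcodes and in 91.6% (86.3 to 95.3) of the 167. Ncmap had one in 21.4% (4.66 to 50.8) and 88.6% (82.8 to 93.0), and Mbp in 42.9% (17.7 to 71.1) and 97.6% (94.0 to 99.3). Levels showed the same contrast. The 14 barcodes had 1431 CPM of Kcna1 (1154 to 1755), against 1633 CPM (1531 to 1739) in the other 167. Ncmap then had 529 CPM (366 to 739) against 2215 CPM (2096 to 2338), and Mbp 1742 CPM (1435 to 2096) against 6383 CPM (6181 to 6591). Pmp22 had 3469 CPM (3028 to 3955) against 8907 CPM (8668 to 9151). Prx, Mal and Cldn19 were also lower in the 14 barcodes beyond counting error. Kcna1 was not alone: the intervals of Mag and Pllp also overlapped between the 14 and the 167 barcodes, in shares and in levels. Overlap does not show equal levels: Mag had 109 CPM from 7 UMIs in the 14 barcodes, against 221 CPM in the 167, and Pllp 389 against 603 CPM. With Ptprc barcodes kept, Kcna1 had 721 CPM (605 to 852) in the 20 barcodes against 1112 CPM (1050.5 to 1176) in the 213, and Ncmap 254 CPM (188 to 337) against 1531 CPM (1459 to 1606). Mag then had 37.1 CPM (14.9 to 76.4) against 148 CPM (127 to 173), and Pllp 164 CPM (112 to 233) against 413 CPM (376 to 453). The levels of all 9 genes, Kcna1 among them, were thus lower in the 20 barcodes beyond counting error. Library 2 gave 9 of the 20 barcodes and 34 of the 213, and its part in these values was not tested.

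Between libraries, counts of the 9 genes at least 1.5-fold apart were set against the same count over all 7646 genes tested. In library 3 against library 1, 5 members (Mag, Mal, Ncmap, Cldn19 and Pllp) were higher against a background of 25.5%, and 0 were lower against 18.1%. In library 3 against library 2, 8 members (all but Mbp) were higher against 22.0%, and 0 were lower against 19.2%. In library 2 against library 1, 0 were higher against 24.6%, and 2 (Mal and Kcna1) were lower against 20.9%. The median log2 ratio of the 9 genes was 0.63, 0.84 and -0.47 in these pairs, against 0.13, 0.04 and 0.03 over all genes tested. Without the Ptprc barcodes the counts were 2 higher (Cldn19 and Pllp, background 22.0%) and 0 lower (17.1%), then 7 higher (24.6%) and 0 lower (22.7%), then 0 higher (26.9%) and 6 lower (25.6%), with 5054 genes tested. Without barcodes over 10000 UMIs, 2 members were higher in library 3 than in library 1, and 2 in library 3 than in library 2. In library 2 over library 1, 1 was higher and 1 lower. The shares over all genes were not counted for that set, so these counts have no background. The pairs share libraries and are not independent. The counts above 0 thus changed with the barcodes that were summed, while none was lower in library 3 in each case. The share of barcodes with a Ptprc UMI, the blood RNA, the median depth and the number of barcodes with glia genes differ between the libraries as given above, and their part in the ratios was not tested.

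**Figure D4:**
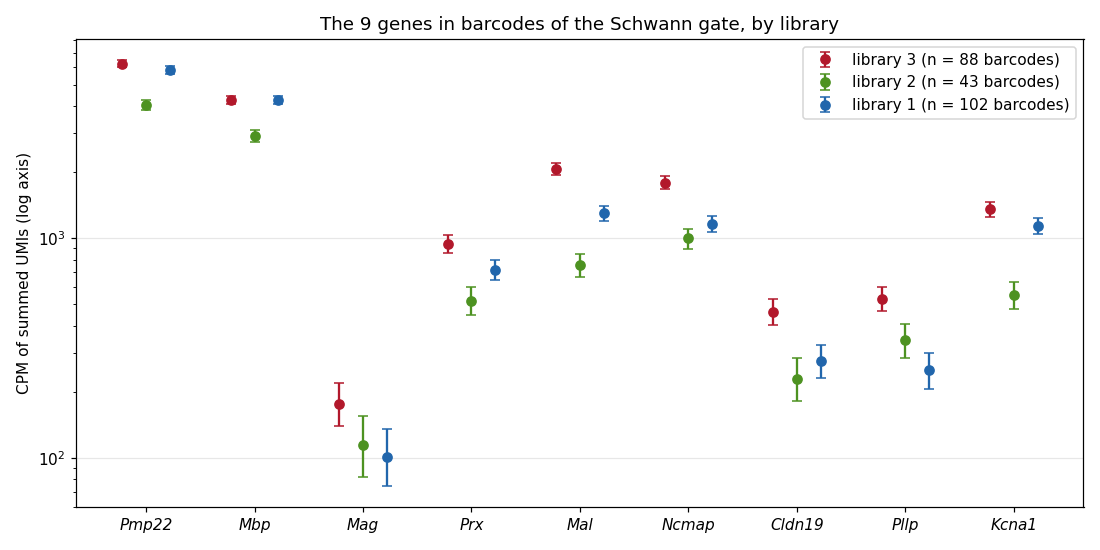
CPM of the 9 genes in the summed UMIs of the Schwann gate (log axis) in libraries 3, 2 and 1, from left to right, with exact Poisson 95% intervals for counting error. Library 2 is lowest for 7 of the 9 genes, and library 1 for Mag and Pllp.

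The ratios were read in 11 settings, the reported one and 10 others that change the gate, the filters, the scaling or the barcodes kept. Of the 27 ratios of the members, 3 stayed past 1.5-fold in all of them. The same count over all genes was not made across the settings, so this one has no background. Mal was higher in library 3 than in library 2 by 2.73-fold (2.38 to 3.13) as reported, and by 0.67 to 1.77 on the log2 scale over the settings. Kcna1 was lower in library 2 than in library 1, with a ratio of 0.482 (0.407 to 0.569), or -1.42 to -0.59 on the log2 scale. Cldn19 was higher in library 3 than in library 1 by 1.67-fold (1.34 to 2.10), or 0.59 to 0.84 on the log2 scale, and its counting interval reaches below 1.5. Pmp22 and Mbp were within 1.5-fold between libraries 3 and 1 in all 11 settings, with log2 ratios of -0.26 to 0.44 and -0.38 to 0.40. No member was 1.5-fold lower in library 3 than in another library under any of the 11.

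**Figure D5:**
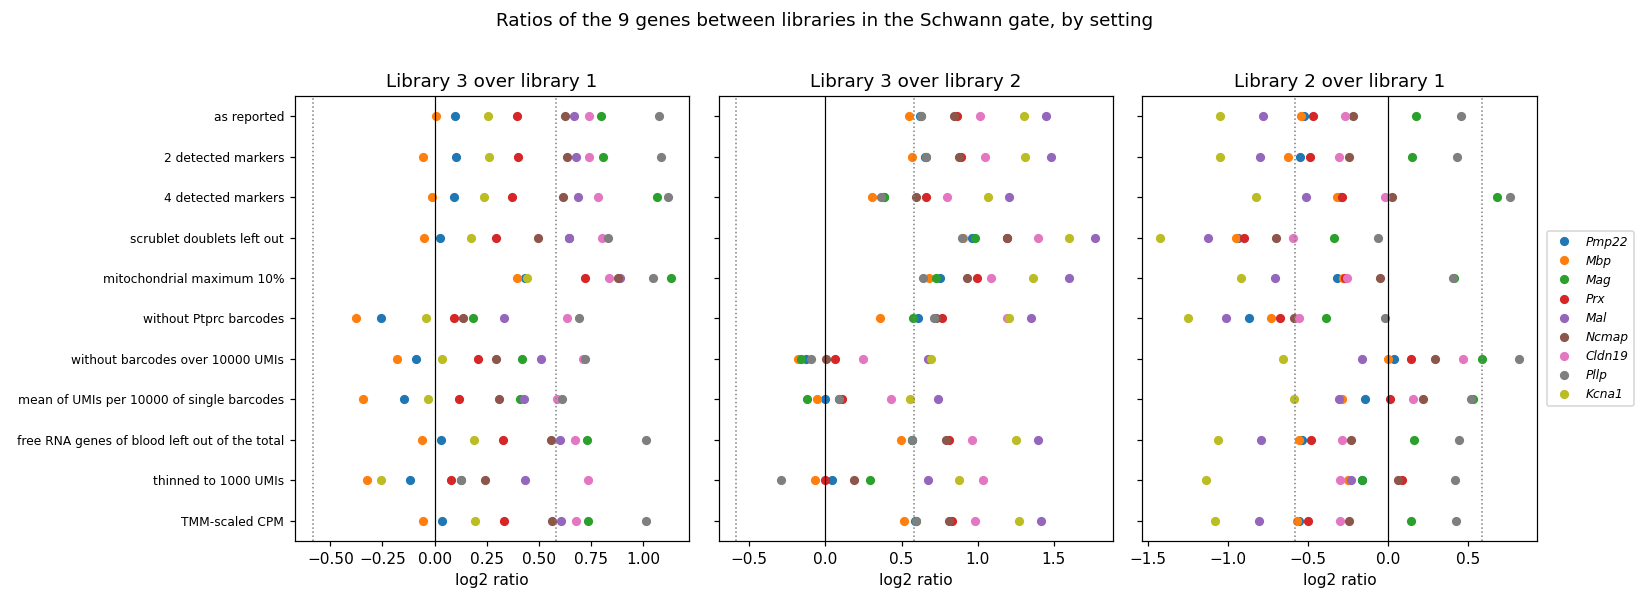
Log2 ratio of each gene's Schwann-gate level for 3 pairs of libraries (panels) under 11 settings (rows), with 1 coloured point per gene, a solid line at 0 and dotted lines at 1.5-fold. Mal stays right of the dotted line for library 3 over library 2, Kcna1 stays left of it for library 2 over library 1, and most other genes cross it in some rows.

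Shares among the 9 genes' own UMIs leave the RNA of all other genes out of the total. Mal took 11.6% (10.9 to 12.3) of them in library 3, 7.22% (6.41 to 8.09) in library 2 and 8.63% (7.98 to 9.32) in library 1. Pllp took 2.97% (2.61 to 3.36), 3.27% (2.73 to 3.89) and 1.67% (1.38 to 2.00), with library 1 lowest. Mbp was lowest in library 3, at 23.9% (23.0 to 24.9), 27.9% (26.4 to 29.3) and 28.3% (27.2 to 29.4), and so was Pmp22, at 35.0% (33.9 to 36.0), 38.6% (37.1 to 40.2) and 38.8% (37.7 to 40.0). Kcna1 was lowest in library 2, at 7.62% (7.06 to 8.21), 5.24% (4.55 to 6.01) and 7.58% (6.97 to 8.23). Prx did not differ beyond counting error, at 5.31% (4.83 to 5.81), 4.95% (4.28 to 5.70) and 4.78% (4.29 to 5.31).

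Other genes of the myelin programme were read from lists, again against the background of 4.70% highest in the Schwann gate in all 3 libraries. Only genes with at least 20 summed UMIs in that gate were tested, 10 of 11 membrane partners and 6 of 12 axon-glia genes. The shares are thus not shares of the whole lists. Of the membrane partners, 8 of 10 tested were highest there, among them Cd9 at 2682, 1788 and 1494 CPM, Cnp, which lines the cytoplasmic channels, at 1439, 569 and 842 CPM, and Dag1, the dystroglycan that periaxin is linked to, at 647, 591 and 585 CPM. Drp2, the partner that joins periaxin to dystroglycan, had 563, 282 and 354 CPM. Of the axon-glia contact and channel genes, 5 of the 6 tested were highest there. Kcna2, a channel subunit that pairs with Kcna1, led them at 348, 218 and 432 CPM. Nfasc, an adhesion gene of the node and paranode, had 161, 109 and 138 CPM. Cntn2, Cntnap1 and Cntnap2 had 0, 0 and 1 UMIs over the 3 libraries. Of the myelin lipid genes, 9 of 13 were highest there. Scd2, a fatty acid desaturase, had 1815, 1461 and 2496 CPM, Hmgcs1, an enzyme of cholesterol synthesis, 665, 346 and 484 CPM, and Ugt8a, which makes galactosylceramide, 462, 279 and 585 CPM. Of the lipid genes, 10 of 13 were at least 1.5-fold higher in library 3 than in library 2 (background 22.0%). In library 2 over library 1, 8 of them were lower (20.9%). These counts were the same without the Ptprc barcodes, against backgrounds of 24.6% and 25.6%. They were not made without barcodes over 10000 UMIs, which held 64.2% of the summed UMIs of library 2. The median log2 ratio of the lipid genes was 0.94 in library 3 over library 2 and -0.77 in library 2 over library 1.

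The other lists were read in the same way, and no difference between lists was tested. The filter left 6 of 7 transcription, 7 of 9 neuropathy, 8 of 13 repair and immature Schwann and 5 of 8 non-myelinating glia genes. Of 6 transcription genes tested 2 were highest there, Tead1 and Pou3f1. Pou3f1 is a factor of promyelinating Schwann cells, and had 240, 61 and 86 UMIs, or 516, 170.1 and 186 CPM, and was higher in library 3 than in both other libraries with and without Ptprc barcodes. Of 7 neuropathy genes tested 1 was highest there, Ndrg1, at 2226, 1434 and 2500 CPM. Of 8 repair and immature Schwann genes none was. Atf3, a gene induced in injured nerve, had 58, 36 and 10 UMIs in the gate of libraries 3, 2 and 1, and Jun, which drives the repair state, 349, 153 and 161, while Ngfr had 1, 34 and 0 and Gap43 0, 21 and 1. The gate summed to 464991, 358550 and 463192 UMIs. The 8 genes went both ways. In library 3 over library 1, 4 were higher (background 25.5%) and 3 lower (18.1%), Gap43 and Ngfr among them at 0 or 1 UMI, with a 0 set to 3 counts. In library 3 over library 2, 1 was higher (22.0%) and 4 lower (19.2%). In library 2 over library 1, 5 were higher (24.6%) and 1 lower (20.9%). Of 5 non-myelinating glia genes tested Fabp7 was highest there, with 2, 26 and 11 UMIs. Of the 6 blood genes none was.

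The genes most like the 9 were found by Pearson's r of log2(CPM + 1) with the mean of the 9 genes, each z-scored. The r was taken over 21 gates and 3 libraries, 63 points that share libraries and depth. Only genes with at least 20 summed UMIs in the Schwann gate entered. Since all 9 genes were highest in that gate, a high r mainly describes restriction to it and no closer tie to a member. Gjc3, a connexin of myelinating glia, came first with r of 0.964, followed by Pou3f2 at 0.957, B230206H07Rik at 0.955, Hepacam at 0.952, Fa2h, which hydroxylates myelin lipids, at 0.952, Gm48697 at 0.951, Gm13403 at 0.951, Gm12688 at 0.951 and Pmp2, a lipid-binding protein of peripheral myelin, at 0.948. For single genes, the nearest were Plekha4 for Pmp22 (0.926), Gm13403 for Mbp (0.862), Plxnb3 for Mag (0.874), Adamts20 for Prx (0.902, its second nearest), Mmp15 for Mal (0.871), Gjc3 for Ncmap (0.947), Gm12688 for Cldn19 (0.985), Ttc9 for Pllp (0.928) and Gjc3 for Kcna1 (0.961). Itgb4, an integrin subunit shared by Schwann cells and epithelia, was among the 3 nearest to Mal (0.866) and was itself not highest in the Schwann gate in all libraries. Mmp15 was also among the 3 nearest to Pllp (0.903).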

How the data were processed

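The authors deposited 1 table of raw UMI counts per gene and cell barcode for all 3 libraries, written by Cell Ranger 7.1.0 per the file headers. Per the labels' protocols they are 10x libraries of RNA 3′ ends, and the submitters' processing notes name the build GRCm39. No source used here gives the settings for cell calling and pooling. The barcode suffix matches no sample label, so no library was put into a group. The 9 genes and all lists were chosen with earlier results of these data known.

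UMIs were scaled to 10000 per barcode, put on a natural log scale with 1 added, z-scored over kept barcodes and capped at 10. The type with the highest mean z among those with at least 3 detected markers, of 25 marker lists, was assigned. Raw UMIs were summed per gate and library as CPM. Intervals are exact Poisson for CPM, exact Clopper-Pearson for shares and exact conditional binomial for ratios, all at 95%, and a count of 0 allows up to 3 counts. They cover counting error alone. Doublets were not removed. As an alternative, scrublet in scanpy 1.11.5 called 506 (4.73%), 450 (4.69%) and 951 (5.63%) barcodes of libraries 3, 2 and 1. The code for ratios and intervals was checked on simulated counts, and no test between groups was made. Genes named are the 9 members, the 10 genes most like their mean, the 3 most like each member and, per list, up to 3 with the highest level or past 1.5-fold in the same direction in both pairs that share a library. Ngfr, Gap43, Cntn2, Cntnap1, Cntnap2 and Mobp were added after their values were seen. Some genes, 2 gate markers among them, and 1 other choice of gate markers are not reported here. The work used R 4.3.3 with edgeR 4.0.16 for TMM factors, an alternative scaling, and scipy 1.17.1, numpy 2.4.6, anndata 0.12.19, pandas 2.3.3 and matplotlib 3.10.9 under Python 3.11.15.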

Additional observations from a re-analysis of the deposited data

How the results depend on the processing

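All 9 genes were highest in the Schwann gate in all 3 libraries under each of the 7 alternatives run for that result. The number of barcodes in the gate ranged over 73 to 88, 30 to 46 and 62 to 106 in libraries 3, 2 and 1, with 62 in library 1 at a mitochondrial maximum of 10%. The counts of members 1.5-fold apart depended on the setting, and the causes were not tested. Shares over all genes were counted for the reported setting and without Ptprc barcodes alone. The counts under the other settings thus have no background. Leaving out Ptprc barcodes or barcodes over 10000 UMIs was added after seeing the data. In library 3 over library 1, 5 were higher as reported, 6 at a mitochondrial maximum of 10%, 2 without Ptprc barcodes, 2 without barcodes over 10000 UMIs, 2 with means of single barcodes and 1 with thinning to 1000 UMIs. In library 3 over library 2, 8 were higher as reported, 9 at that maximum and also without scrublet doublets, 5 with 4 detected markers, 5 with blood RNA left out of the total, 2 without barcodes over 10000 UMIs, 1 with means of single barcodes and 3 with thinning. In library 2 over library 1, 0 were higher as reported, 2 with 4 detected markers and 1 without barcodes over 10000 UMIs, and 2 were lower as reported, 1 with 4 detected markers, 7 without scrublet doublets, 6 without Ptprc barcodes, 1 without barcodes over 10000 UMIs, 1 with means of single barcodes and 1 with thinning. Among the members past 1.5-fold in library 3 over library 2 as reported, the log2 ratio changed sign for Pmp22 (-0.13), Mag (-0.16) and Pllp (-0.092) without barcodes over 10000 UMIs, for Pmp22 (-0.004) and Mag (-0.12) with means of single barcodes, and for Prx (-0.006) and Pllp (-0.29) with thinning. Mbp, within 1.5-fold as reported in that pair, was below 0 in 3 of the 11 settings, lowest at -0.18 without barcodes over 10000 UMIs. No paired analysis was possible because no test was run and each library is 1 sample of unknown group. Depth limits Mag most, with 82, 41 and 47 UMIs in the gate of libraries 3, 2 and 1.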

Other observations

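Among barcodes that were assigned no type, 5 in library 3, 0 in library 2 and 3 in library 1 had at least 10 Mbp UMIs, and they were looked for after the values had been seen. They were shallow, with 515 to 1155 UMIs in library 3 and 508 to 693 in library 1, and held 281 and 234 Mbp UMIs, with up to 106 and 126 in a barcode. Mobp, a gene of central myelin, had 24 UMIs in the 5 barcodes and 24 in the 3, while Prx had 0 in both. In the B cell gate of library 3, 58 of 72 Pmp22 UMIs and 16 of 19 Mal UMIs came from 1 barcode each, and in the NK gate of library 3 the same held for 19 of 25 Pmp22 UMIs and all 7 Mal UMIs.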
